A study of Homo sapiens with 27 samples.

Results

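The transcripts described here are those of MYC and of 34 genes for ribosome biogenesis, most of them widely listed as MYC targets. The 35 genes were listed by name, with earlier results of these data known. A gene counted as measured where a probe set, a group of short probes against 1 transcript, was annotated with that gene alone. By this rule 28 of the 35 genes were measured, by 41 probe sets, out of 11963 genes measured on the array. NOP56, DKC1 and BOP1 were left out because their probe sets also name small RNA genes. NOP58, EBNA1BP2, GNL3 and LYAR were not analysed here. Where a gene had more than 1 probe set, which was so for 8 of the 28, the brightest was used.

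The cells were MDA-MB-231, a human breast cancer line of mesenchymal character, and total RNA was hybridised to 27 Affymetrix arrays. All cells were kept in DMEM with serum and received DMSO as the vehicle, 5SGlcNAc at 50 µM, or Thiamet-G at 25 µM. 5SGlcNAc inhibits OGT, the enzyme that attaches the sugar O-GlcNAc to nuclear and cytosolic proteins, and Thiamet-G inhibits OGA, the enzyme that removes it. Each treatment had 3 arrays at 48 h and 1 array at each of 0, 2, 4, 6, 8 and 24 h. The inhibitors were given at different doses, so a difference between them is a difference between those 2 treatments as given. The comparisons ask how blocking either enzyme of the O-GlcNAc cycle altered transcript levels in these cells.

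Ribosomes are built in the nucleolus, where RNA polymerase I makes a long precursor of ribosomal RNA. Small nucleolar ribonucleoproteins (snoRNPs) guide its cleavage and chemical modification, and separate sets of assembly factors fold it with ribosomal proteins into the small and the large subunit. MYC is a transcription factor that, paired with MAX, binds the sequence CACGTG (an E-box) and raises transcription of many of these factors. MYC is itself O-GlcNAc modified in cells.

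Because MYC reads the E-box, the promoters of the measured genes were searched for CACGTG, which is the same on both strands. RefSeq promoter windows on GRCh38.p14, reaching from 250 bases before to 50 bases after a transcription start, were at hand for 23 of the 28 genes. The motif was found for 11 of these 23 (47.8%), against 1144 of 9563 genes tested on the array (12%). The share was 26 of 67 (38.8%) for other ribosome biogenesis factors, and 3 of 46 (6.5%) for genes of cytosolic ribosomal proteins. Among MYC targets outside ribosome biogenesis, the motif was found for 21 of 50, so it was not particular to ribosome biogenesis genes. In 8 of the 11 windows the motif lay in the 50 bases after the start. The 6 genes below are shown because they carry the motif and were also higher after 48 h of 5SGlcNAc, with 30 bases each and the motif in capitals:
BYSL: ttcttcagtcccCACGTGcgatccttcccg
PNO1: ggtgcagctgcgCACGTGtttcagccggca
WDR43: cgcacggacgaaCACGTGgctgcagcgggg
NOP2: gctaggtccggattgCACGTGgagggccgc
MRTO4: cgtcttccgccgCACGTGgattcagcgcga
FBL: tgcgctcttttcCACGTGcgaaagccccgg
They lie at chr6:41921515-41921544 (plus strand), chr2:68157885-68157914 (plus), chr2:28894658-28894687 (plus), chr12:6568242-6568271 (minus), chr1:19251807-19251836 (plus) and chr19:39846356-39846385 (minus), in that order. The other genes with the motif were RRP9, PUS7, PES1, DDX21 and UTP20. Among genes with a window, the motif was present for 6 of the 12 that were higher with 5SGlcNAc at 48 h and for 5 of the 11 that were not called. A match describes the sequence only, and binding was not measured.

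Levels are log2 signals, on which a difference of 1 is a 2-fold change. Array medians were 7.68 to 7.76 in the 48 h set and 7.43 to 7.53 in the set of earlier times, and levels were compared only within a set. At 48 h the mesenchymal markers sat at a median of the 97.6th percentile of probe sets, although SPARC sat at the 15.8th. The luminal epithelial markers sat at the 62.8th, with KRT18 at the 98.6th, and the haematopoietic and fibroblast markers at the 30th and 28.6th. RNA integrity, read as the ACTB signal of the 3′ probe set minus that of the 5′ probe set, varied little at 48 h (0.15 to 0.39). Before 48 h it ranged from 0.42 to 0.95 except at 4 h, where the DMSO array gave 1.64 and the Thiamet-G array 1.24. In bulk RNA, fewer cells of a type and less RNA per cell cannot be told apart. The labels do not say whether the replicates of 48 h are separate cultures. The p-values therefore describe the spread among these arrays, and that spread may be technical.

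At 48 h the MYC transcript itself hardly differed between treatments. Its 3 arrays read 12.18, 12.15 and 12.15 with DMSO, 12.29, 12.14 and 12.23 with 5SGlcNAc, and 12.10, 12.09 and 12.15 with Thiamet-G. The DMSO and 5SGlcNAc arrays overlapped, and so did the DMSO and Thiamet-G arrays. MYC was not called against DMSO for 5SGlcNAc, at 0.060 ± 0.047 (SE; limma adjusted p = 0.453), with a confidence interval of the difference from -0.045 to 0.165. For Thiamet-G the difference was -0.047 ± 0.047 (adjusted p = 0.621), and it turned to 0.010 when each array was centred on its median.

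With 5SGlcNAc at 48 h, transcripts of the ribosome assembly factors were higher. Of the 28 genes, 15 passed the limma test as higher (adjusted p under 0.05 over all genes) and 0 as lower, where 2.92% of all genes tested were called higher. The genes were chosen with earlier results of these data known, so these counts are not independent support for a rise of the set. At an unadjusted p under 0.05 the counts were 20 and 0, where 3049 of all 11963 genes had such a p in either direction. The difference was above 0 for 28 of 28 genes, where it was above 0 for 53.1% of all genes. The median was 0.18 on the log2 scale against 0.010 over all genes. The genes share the same arrays, so their signs are not separate observations. The changes were small, from 0.17 to 0.34 among the called genes, and BYSL at the top was 1.27-fold higher. In 22 of the 28 genes all 3 5SGlcNAc arrays lay above all 3 DMSO arrays, where this held for 12.7% of all genes. The calls fell on both subunits, with 6 of 9 small subunit factors and 7 of 10 large subunit factors, on 2 of 4 snoRNP and RNA modification factors, and on 0 of 4 RNA polymerase I and nucleolar RNA factors (2 of those 4 had an unadjusted p under 0.05). Over all genes, 349 were called higher and 876 lower (28.5% higher), a split that depended on scaling. Centring each array on its median gave 662 and 611 (52%), with 18 of the 28 genes called. Quantile normalization gave 516 and 740 (41.1%), with 16 called. The count of 15 fell without any 1 array. It was 8, 9 or 7 without DMSO array 1, 2 or 3. Without 5SGlcNAc array 1, 2 or 3 it was 6, 9 or 9. The share of all genes called higher also fell in those fits, from 2.92% to between 1.25% and 2.01%. The genes called in all 6 of those fits were BYSL, NOP16, NOP2, WDR12, RRS1 and WDR3.

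Among the small subunit factors, BYSL, or bystin, which acts late in maturation of the small subunit, differed most. It read 11.65, 11.68 and 11.71 with DMSO, and 12.06, 11.98 and 12.03 with 5SGlcNAc. The groups did not overlap, and the difference was 0.34 ± 0.042 (adjusted p = 0.00141). With Thiamet-G it read 11.65, 11.71 and 11.72, which overlaps the DMSO arrays.

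PNO1, an RNA-binding factor of small subunit precursors, read 11.44, 11.51 and 11.47 with DMSO and 11.77, 11.89 and 11.72 with 5SGlcNAc, a difference of 0.32 (adjusted p = 0.0222). WDR43, a subunit of the early small subunit processome that also supports transcription of ribosomal DNA, read 10.47, 10.40 and 10.35 against 10.81, 10.64 and 10.65, a difference of 0.29 ± 0.061 (adjusted p = 0.0160). WDR3, of a neighbouring processome module, read 11.02, 11.05 and 11.04 against 11.30, 11.31 and 11.28, a difference of 0.26 ± 0.040 (adjusted p = 0.00431). None of these 3 genes had an overlapping array between the groups. WDR3 had the tightest replicates of the 3, and its call held without any single array, whereas WDR43 held in 3 of 6 such fits and PNO1 in 1. A dimmer PNO1 probe set, of a design whose probes can match other transcripts, gave 0.073 and was not called.

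RRP12, which serves export of ribosomal precursors from the nucleus, read 9.72, 9.61 and 9.76 with DMSO and 10.13, 9.86 and 9.97 with 5SGlcNAc. The difference was 0.29 (adjusted p = 0.0337), and array 1 of 5SGlcNAc was the highest. TSR1, a factor of late small subunit precursors, read 11.13, 11.34 and 11.23 against 11.48, 11.48 and 11.55, a difference of 0.27 (adjusted p = 0.0312). RRP12 and TSR1 each kept the call in 1 of the 6 fits without an array. The dimmer probe sets gave 0.25 and 0.14 for RRP12 and 0.19 and 0.21 for TSR1, none of them called. With Thiamet-G those of TSR1 gave 0.060 and 0.24, in the same order, also not called. RRP9, a protein of the snoRNP that cuts the small subunit precursor, read 8.73, 8.82 and 8.91 against 8.98, 8.93 and 9.11. Its arrays did not overlap, but its difference of 0.19 missed the threshold (adjusted p = 0.0904). The scaffold proteins UTP20 (0.11) and HEATR1 (0.087) of the small subunit processome were not called either (adjusted p = 0.294 and 0.283). A second, dimmer HEATR1 probe set gave -0.027.

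Among the large subunit factors, NOP2, a methyltransferase of large subunit RNA, read 9.78, 9.85 and 9.74 with DMSO and 10.08, 10.11 and 10.10 with 5SGlcNAc. The difference was 0.31 ± 0.046 (adjusted p = 0.00395). NOP16, a nucleolar factor of large subunit precursors, read 12.22, 12.18 and 12.26 against 12.57, 12.46 and 12.52, a difference of 0.30 ± 0.043 (adjusted p = 0.00333). For both genes the lowest 5SGlcNAc array stood clear of the highest DMSO array. NOP16 has 3 other probe sets, of which 1 gave 0.35 and the dimmer pair 0.073 and 0.097.

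WDR12, which with PES1 and BOP1 forms a complex needed for large subunit RNA processing, read 11.05, 11.11 and 11.15 with DMSO and 11.40, 11.37 and 11.35 with 5SGlcNAc. Its difference was 0.27 ± 0.041 (adjusted p = 0.00413). Its partner PES1 read 10.07, 10.10 and 10.19 against 10.27, 10.28 and 10.21, a difference of 0.13 that was not called (adjusted p = 0.154). Its 5SGlcNAc arrays were all above DMSO, the lowest of them only just. RRS1, which helps place the small ribosomal RNA particle of the large subunit, read 11.02, 11.03 and 11.05 against 11.36, 11.22 and 11.31, a difference of 0.26 ± 0.044 (adjusted p = 0.00636). MRTO4, which holds the place of the ribosomal stalk protein, was higher by 0.24 ± 0.048 (adjusted p = 0.0141), and GRWD1, a chaperone of a ribosomal protein, by 0.18 (adjusted p = 0.0229).

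BRIX1, an early assembly factor of the large subunit, was higher with both inhibitors. It read 9.14, 9.23 and 9.22 with DMSO, 9.49, 9.48 and 9.49 with 5SGlcNAc, and 9.61, 9.34 and 9.64 with Thiamet-G. Both inhibitors lay above DMSO in all arrays, with differences of 0.29 (adjusted p = 0.0367) and 0.33 (adjusted p = 0.0428). The 5SGlcNAc call was lost in each of the 6 fits that left out an array. NIP7 (0.087) and RRP1B (0.13), further nucleolar factors of the large subunit, were not called (adjusted p = 0.526 and 0.227).

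Of the snoRNP and RNA modification factors, NOLC1 and FBL were called. NOLC1, a chaperone of snoRNPs, read 12.73, 12.80 and 12.73 with DMSO and 12.94, 12.92 and 12.92 with 5SGlcNAc, a difference of 0.17 (adjusted p = 0.0217). Its other probe sets gave 0.20 and, at the dimmest, 0.027, neither called. FBL, the methyltransferase fibrillarin, read 12.60, 12.70 and 12.71 against 12.85, 12.83 and 12.84, a difference of 0.17 (adjusted p = 0.0419). Neither group pair overlapped, but NOLC1 kept the call in 1 and FBL in 0 of the 6 fits without an array. PUS7, a pseudouridine synthase (0.16, adjusted p = 0.137), and NHP2, a core protein of the pseudouridylation snoRNPs (0.067, adjusted p = 0.306), were not called.

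None of the RNA polymerase I and nucleolar RNA factors was called. POLR1C, a subunit shared by RNA polymerases I and III, differed by 0.14 (adjusted p = 0.0951), and DDX21, an RNA helicase of nucleolar transcription and processing, by 0.12 (adjusted p = 0.0995). In both, all 5SGlcNAc arrays lay above all DMSO arrays. POLR1B, a catalytic subunit of RNA polymerase I, read 8.50, 8.26 and 8.51 with DMSO and 8.60, 8.58 and 8.36 with 5SGlcNAc, so the groups overlapped. NCL, or nucleolin, differed by 0.047 (adjusted p = 0.627).

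**Figure D1:**
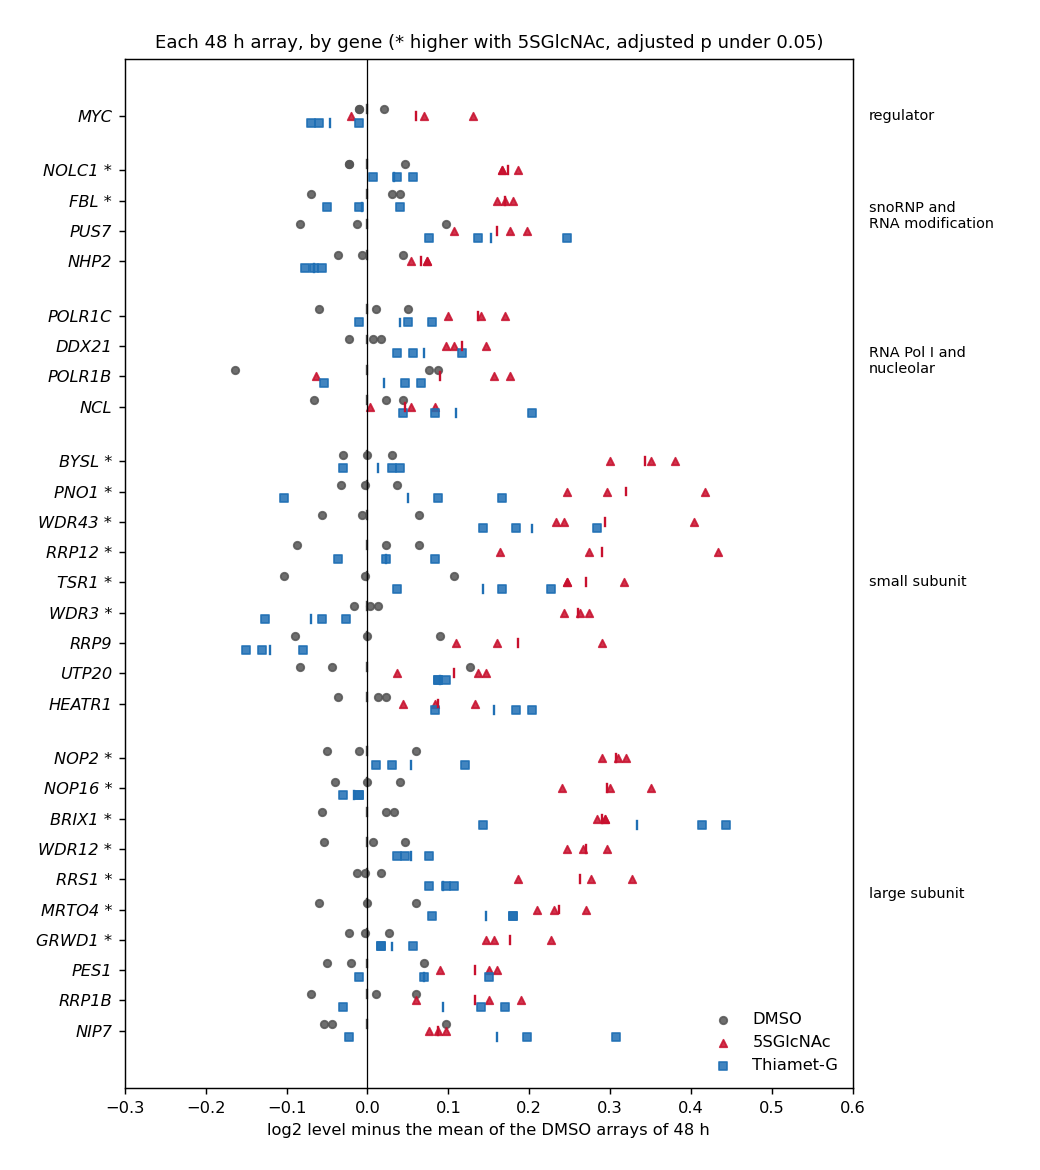
Each row is a gene, grouped by role, and each point is 1 array of 48 h as its log2 level minus the mean of the 3 DMSO arrays of that gene; short vertical lines mark the mean of each treatment. The 15 genes with an asterisk passed the test for 5SGlcNAc, and the BYSL points with 5SGlcNAc lie well to the right of both other groups while the MYC points mix.

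With Thiamet-G at 48 h, 1 of the 28 genes, BRIX1, was called higher and 0 lower, where 0.476% of all genes were called higher. At an unadjusted p under 0.05 the counts were 5 and 0 of the 28. An unadjusted p under 0.05, in either direction, was found for 2373 of all 11963 genes. The median difference of the 28 genes was 0.053, against -0.010 over all genes. BRIX1 was 1.26-fold higher, but array 2 of Thiamet-G lay below the other two, and the call held in only 1 of 6 fits without an array, the one that left out that array (adjusted p = 0.00600). All 3 Thiamet-G arrays were above all 3 DMSO arrays for 6 genes, WDR43, RRS1, BRIX1, DDX21, HEATR1 and MRTO4, where 6.37% of all genes were so placed. NHP2 and WDR3 had all 3 Thiamet-G arrays below DMSO, a placement whose share over all genes was not counted. WDR43 read 10.55, 10.59 and 10.69, a difference of 0.20 (adjusted p = 0.114). HEATR1 read 10.81, 10.69 and 10.79 against DMSO at 10.62, 10.63 and 10.57, a difference of 0.16 (adjusted p = 0.113). The second, dimmer HEATR1 probe set gave -0.023 and was not called, so this rise was seen with 1 probe set only. BYSL and NOP16, both called with 5SGlcNAc, differed by 0.013 and -0.017, with intervals from -0.080 to 0.11 and from -0.11 to 0.080. Dimmer NOP16 probe sets gave 0.14 ± 0.056, -0.080 and 0.050, none of them called. Over all genes 57 were higher and 360 lower (13.7% higher), which median centring turned to 106 and 151 (41.2%) and quantile normalization to 74 and 209 (26.1%). In both, BRIX1 was again the 1 gene of the set that was called.

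Set directly against Thiamet-G at 48 h, 5SGlcNAc gave 13 of the 28 genes as higher and 0 as lower, where 6.87% of all genes were called higher. All 3 5SGlcNAc arrays lay above all 3 Thiamet-G arrays for 16 genes, where this held for 16.1% of all genes. WDR3 differed by 0.33 ± 0.040 (adjusted p = 0.000969), since its Thiamet-G arrays read 10.98, 10.91 and 11.01. BYSL differed by 0.33 ± 0.042 (adjusted p = 0.00117) and NOP16 by 0.31 ± 0.043 (adjusted p = 0.00182). The Thiamet-G arrays of BYSL and NOP16 lay within or beside their DMSO range.

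RRP9 was called between the inhibitors, at 0.31 ± 0.061 (adjusted p = 0.0109), though neither inhibitor was called against DMSO. Its Thiamet-G arrays read 8.67, 8.69 and 8.74 and overlapped its DMSO arrays. NHP2 was likewise called only here, at 0.13 (adjusted p = 0.0464). In all, 11 genes were called against both DMSO and Thiamet-G, 4 against DMSO only (BRIX1, MRTO4, TSR1 and WDR43) and 2 against Thiamet-G only. These comparisons share the 5SGlcNAc arrays, so the lists are not independent. MYC differed by 0.11 between the inhibitors, with an interval from 0.0020 to 0.21, and was not called (adjusted p = 0.173). The count of 13 became 9 after median centring, 6 with only the arrays of the 2 groups, and 6 to 9 without 1 array. BYSL, NOP16, RRP9, NOP2, WDR12 and WDR3 were called in all 6 of those last fits. Of all genes, 5.63%, 4.16% and 3.44% to 7.94% were called higher in these settings.

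Other genes of the pathway were followed as fixed lists, also chosen with earlier results of these data known. Among 76 further ribosome biogenesis factors, 11 were higher with 5SGlcNAc at 48 h and 0 lower, with a median of 0.087. The leading genes were EMG1, a methyltransferase of small subunit RNA (0.31, adjusted p = 0.00218), NOL6, a processome component (0.32, adjusted p = 0.00297), and ESF1 (0.21, adjusted p = 0.0168). With Thiamet-G 0 of these 76 were called, and 11 had an unadjusted p under 0.05. Between the inhibitors 9 were higher and 0 lower, led by EMG1, NOL10 and NOL6.

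Of 16 further genes of the RNA polymerase I machinery 1 was higher with 5SGlcNAc (POLR2H, a shared polymerase subunit, 0.20), and of 15 of the RNA polymerase III machinery 3 were (POLR3E, 0.21; POLR3G, 0.25; POLR3B, 0.16). The 52 measured ribosomal protein genes, the products that the assembly factors handle, had 0 calls in either direction, 0 also at an unadjusted p under 0.05, and a median of -0.0070. Of 57 MYC targets outside ribosome biogenesis, 3 were higher: SLC3A2, an amino acid transporter chain (0.27), ODC1, of polyamine synthesis (0.23), and NME1, a nucleotide kinase (0.16). Among 22 genes of the MYC network only MNT, a MAX partner that represses transcription, was called, lower by 0.34 (log2 difference -0.34, adjusted p = 0.0104). Of 18 genes repressed with MYC, 1 was higher (GADD45A, 0.35) and 1 lower (TXNIP, -0.21). In the same comparison 2.92% of all genes were called higher and 7.32% lower. With Thiamet-G these lists held 3 calls, all lower: GTF3A (-0.17), IMPDH2 (-0.17) and CDKN1A (-0.35). Of all genes, 3.01% were called lower with Thiamet-G. Between the inhibitors, 5SGlcNAc was higher for 3 of the RNA polymerase I genes, 4 of the RNA polymerase III genes and 8 of the MYC targets outside ribosome biogenesis, with 0 lower in each. Of the MYC network 3 were higher and 1 lower, and of the genes repressed with MYC 3 were higher and 5 lower. Over all genes 6.87% were higher and 6.79% lower. The ribosomal proteins again had 0 calls, and 4 had an unadjusted p under 0.05.

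Markers of other cell types were read beside these counts. At 48 h with 5SGlcNAc, 4 of 18 luminal epithelial markers were lower, led by AGR2 (-1.30), KRT19 (-0.42) and CLDN7 (-0.48), and the mean of that list was 8.35 to 8.40 per array against 8.55 to 8.61 with DMSO. Of 10 mesenchymal markers S100A4 (-0.54) was lower, and the mean of that list was 12.35 to 12.39 with 5SGlcNAc against 12.42 to 12.48 with DMSO, so neither of these lists overlapped. Of 10 fibroblast markers LUM (-0.49) was lower, and of 8 haematopoietic markers 0 were called (1 at an unadjusted p under 0.05). The means of these last lists overlapped between 5SGlcNAc and DMSO. Between the inhibitors, 5SGlcNAc was lower for 6 luminal markers, led by AGR2 (-1.47), and for 3 mesenchymal markers, S100A4 (-0.54), CAV1 (-0.25) and FN1 (-0.23). LUM was lower there by 0.95 (log2 difference -0.95), and of the haematopoietic markers 1 was higher and 1 lower. With Thiamet-G against DMSO no marker was called, and 2, 4, 2 and 2 mesenchymal, luminal, haematopoietic and fibroblast markers had an unadjusted p under 0.05. The part of the luminal and mesenchymal shifts in the results above was not tested.

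**Figure D2:**
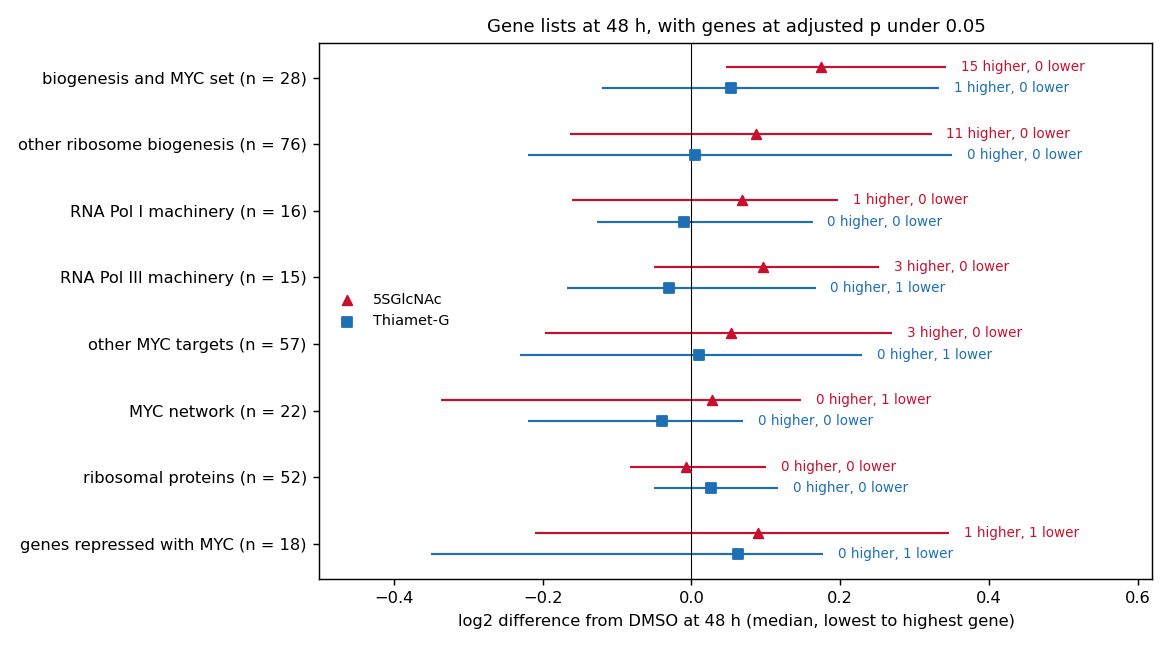
For each gene list the symbol marks the median log2 difference from DMSO at 48 h and the line runs from the lowest to the highest gene; text gives the genes called in each direction. The biogenesis and MYC set (15 higher) and the other ribosome biogenesis factors (11 higher) lie to the right with 5SGlcNAc, and the ribosomal proteins straddle 0.

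Over the first 24 h, MYC showed a transient fall that all treatments shared. With DMSO it read 11.66 at 0 h, 10.89 at 2 h, 11.45 at 4 h, 11.56 at 6 h, 11.42 at 8 h and 11.65 at 24 h. With 5SGlcNAc it read 11.61, 10.95, 11.47, 11.48, 11.32 and 11.76, and with Thiamet-G 11.69, 11.21, 11.61, 11.64, 11.65 and 11.78. All 3 series were lowest at 2 h, and the vehicle series fell as the inhibitor series did. Against 0 h, with the 3 series as a block, MYC fell by 0.64 ± 0.066 at 2 h (limma adjusted p = 0.00037), or 1.56-fold. It was the only gene of the set called lower at 2 h, where 0.301% of all genes were. Without the DMSO series the fall was 0.57 and was not called (adjusted p = 0.105). In that smaller fit 0 of 11963 genes were called at 2 h in either direction. At 4, 6, 8 and 24 h its difference from 0 h was -0.15, -0.097, -0.19 and 0.075, none of them called.

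From 4 h on, 2 to 4 of the assembly factors were called lower at each time. At 4 h 2 genes were called lower, where 1.95% of all genes were: RRS1 by 0.42 ± 0.058 (adjusted p = 0.00166) and BYSL by 0.23 ± 0.052 (adjusted p = 0.0261). RRS1 read 11.40, 11.38 and 11.51 at 0 h in the DMSO, 5SGlcNAc and Thiamet-G series and 10.94, 10.97 and 11.12 at 4 h, so every series fell. At 4 h the DMSO array had the highest ACTB difference, and without it RRS1 kept its call and BYSL did not (adjusted p = 0.0750). At 6 h RRS1 and NOP16 were lower, where 2.22% of all genes were. At 8 h PES1, RRP12, RRP9 and RRS1 were lower (2.49% of all genes), and at 24 h NOP16, PUS7 and RRP12 (5.14%). No gene of the set was called higher at any time, nor was any higher at an unadjusted p under 0.05. After RRS1 at 4 h, the next falls in size were RRP9 at 8 h, by 0.39 ± 0.093 (adjusted p = 0.0220), and RRP12 at 8 h, by 0.33 ± 0.074 (adjusted p = 0.0184).

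Markers of other cell types were read beside these times too. Of 18 luminal epithelial markers, 2, 3, 4, 9 and 8 were lower at 2, 4, 6, 8 and 24 h, and 2 were higher at 24 h. The largest falls were those of AGR2 (-1.58) and TFF1 (-1.40) at 24 h. At 24 h FN1 (-0.65) and S100A4 (-0.75) of the mesenchymal markers and LUM (-1.05) of the fibroblast markers were lower as well. Of the haematopoietic markers 0 were called at any of these times, and 0 had an unadjusted p under 0.05. The part of these shifts in the calls over time was not tested.

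The medians over the 28 genes were 0.031, -0.14, -0.11, -0.089 and -0.076 at 2, 4, 6, 8 and 24 h, and those over all genes lay between -0.0040 and 0.017. Among the 27 genes other than MYC, the DMSO series had medians of -0.0090, -0.083, -0.10, -0.20 and -0.14 relative to its own 0 h array, with 26 of 27 genes below 0 at 24 h. The Thiamet-G series had 0.032, -0.049, -0.037, 0.024 and -0.037. Over all genes the median of the DMSO series at 24 h was 0.011, and the share below 0 was not counted. Calls over time were few without any 1 series: 0 or 1 genes of the set at each time. Genes called lower on the whole array also became fewer. At 8 h they went from 298 to 0, 53 or 37 without the DMSO, 5SGlcNAc or Thiamet-G series. At 8 h quantile normalization raised the count from 4 to 9 and moved the split of all calls from 60.8% to 50.2% higher, and at 4 h median centring moved it from 40.6% to 52.6%.

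**Figure D3:**
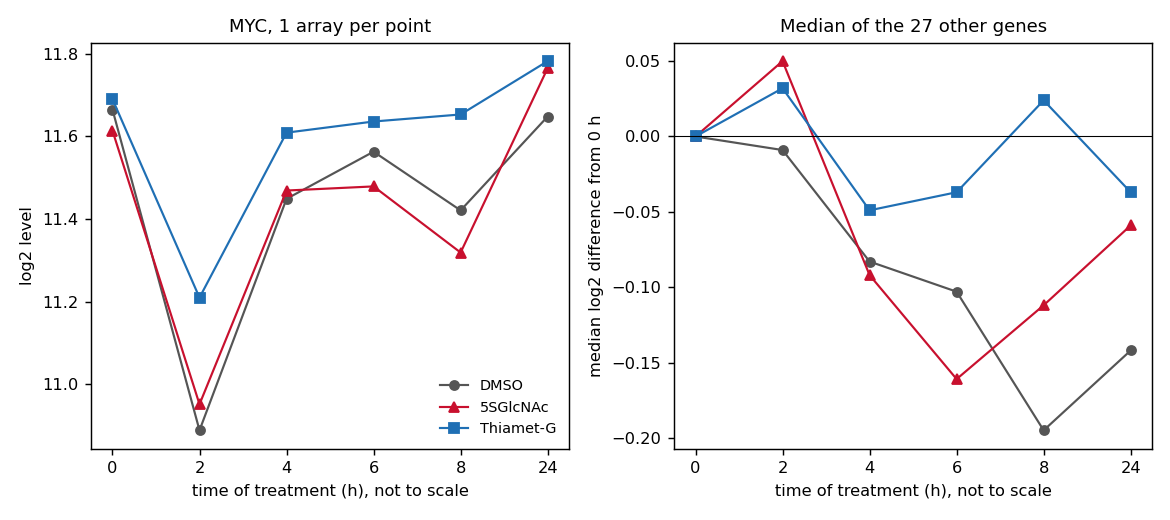
The left panel plots the log2 level of MYC on single arrays against time for the 3 series, and the right panel the median log2 difference of the 27 other genes from the 0 h array of the same series. MYC dips at 2 h in all series, to 10.89 with DMSO, and the median of the other genes reaches -0.20 at 8 h with DMSO.

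Averaged over 2 to 24 h with time as a block, no gene of the set was called for either inhibitor. For 5SGlcNAc 0 of 11963 genes were called by limma (0%), 524 had an unadjusted p under 0.05, and 2 of those were in the set. For Thiamet-G 0 of 11963 were called (0%), 1111 had an unadjusted p under 0.05, and 8 of those were in the set. Between the inhibitors 0 of the 28 were called, where 0.259% of all genes were. There 5SGlcNAc was lower for 21 of the 28 genes and higher for 7, where 50.7% of all genes were higher. The median was -0.068, against 0.001 over all genes. An unadjusted p under 0.05 was found for 8 of the 28 and for 1581 of all genes. The medians of the set were 0.017 for 5SGlcNAc and 0.084 for Thiamet-G, against 0 over all genes for each.

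With Thiamet-G the small differences leaned 1 way. The difference was above 0 at all 5 times for 10 genes (BRIX1, DDX21, GRWD1, MYC, NIP7, PES1, PNO1, RRS1, WDR3 and WDR43) and below 0 at all 5 for 0, where 4.61% and 4.49% of all genes did so. MYC differed from DMSO by 0.32, 0.16, 0.072, 0.23 and 0.13 at 2, 4, 6, 8 and 24 h, with a mean of 0.18 ± 0.052 (adjusted p = 0.307). BRIX1 differed by 0.27, 0.19, 0.066, 0.53 and 0.20, with a mean of 0.25 ± 0.070 (adjusted p = 0.307). At 8 h 26 of the 27 genes other than MYC lay above DMSO, with a median of 0.22 against 0.009 over all genes. The share of all genes above DMSO at 8 h was not counted. Without any 1 time the mean of MYC was still 0.15 to 0.21 and that of BRIX1 0.18 to 0.30, and neither was called. The DMSO median relative to 0 h was lowest at that time. All genes share the same pair of arrays there and are not separate observations.

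With 5SGlcNAc WDR3 alone was above DMSO at all 5 times, and HEATR1 and UTP20 were below at all 5, where 2.47% and 2.72% of all genes were. WDR3 differed by 0.013, 0.040, 0.18, 0.11 and 0.27, and HEATR1 by -0.063, -0.014, -0.21, -0.14 and -0.16. BYSL, the gene with the largest difference at 48 h, differed by 0.065, 0.042, -0.0050, 0.11 and 0.097. The medians of the 27 genes were 0.065, -0.046, -0.034, 0.089 and 0.046, so they crossed 0 between times.

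**Figure D4:**
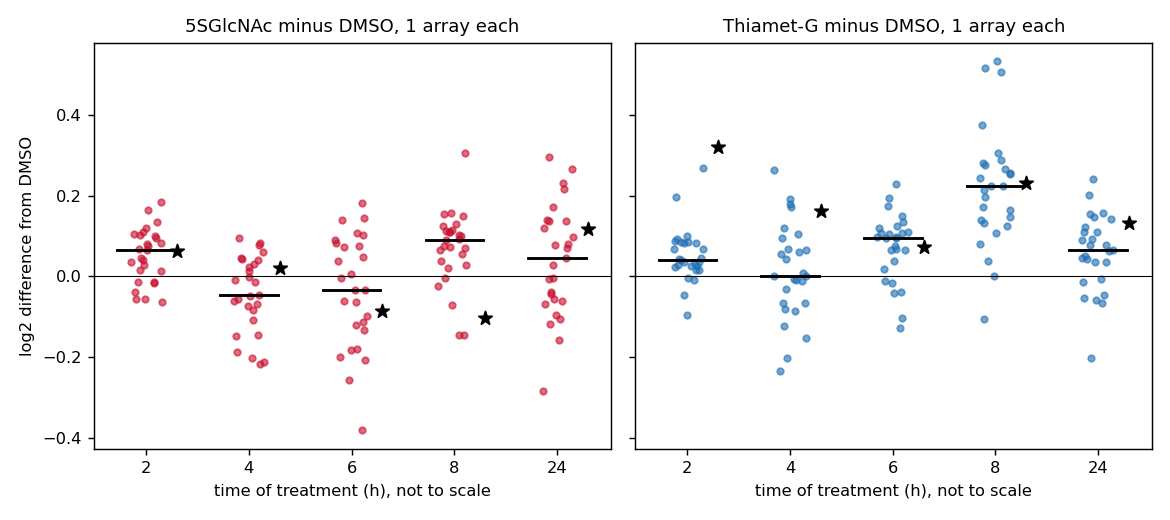
Points are the 27 genes other than MYC as the log2 difference of an inhibitor array from the DMSO array of the same time, black lines are their medians, and stars are MYC. With Thiamet-G the median is highest at 8 h (0.22), and with 5SGlcNAc the points scatter about 0.

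Whether the 48 h effect differed from the effect of the first 24 h was tested in 1 limma fit over 24 arrays with time as a block, which compares differences and not levels between the array sets. For 5SGlcNAc the 48 h effect was the larger for 28 of 28 genes, by a median of 0.16 against 0.0050 over all genes. The share of all genes with the larger effect at 48 h was not counted, and genes on the same arrays are not separate observations. BYSL (from 0.062 to 0.34) and NOP16 (from 0.042 to 0.30) were called, where 0.368% of all genes were called higher, and WDR12 lay just outside (difference 0.24 ± 0.062, adjusted p = 0.0538). For Thiamet-G 0 genes of the set and 0 of all genes were called, 775 genes had an unadjusted p under 0.05, and 9 of the 28 genes had the larger effect at 48 h. MYC changed from 0.0030 to 0.060 with 5SGlcNAc, a difference of 0.057 ± 0.072 (adjusted p = 0.821).

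**Figure D5:**
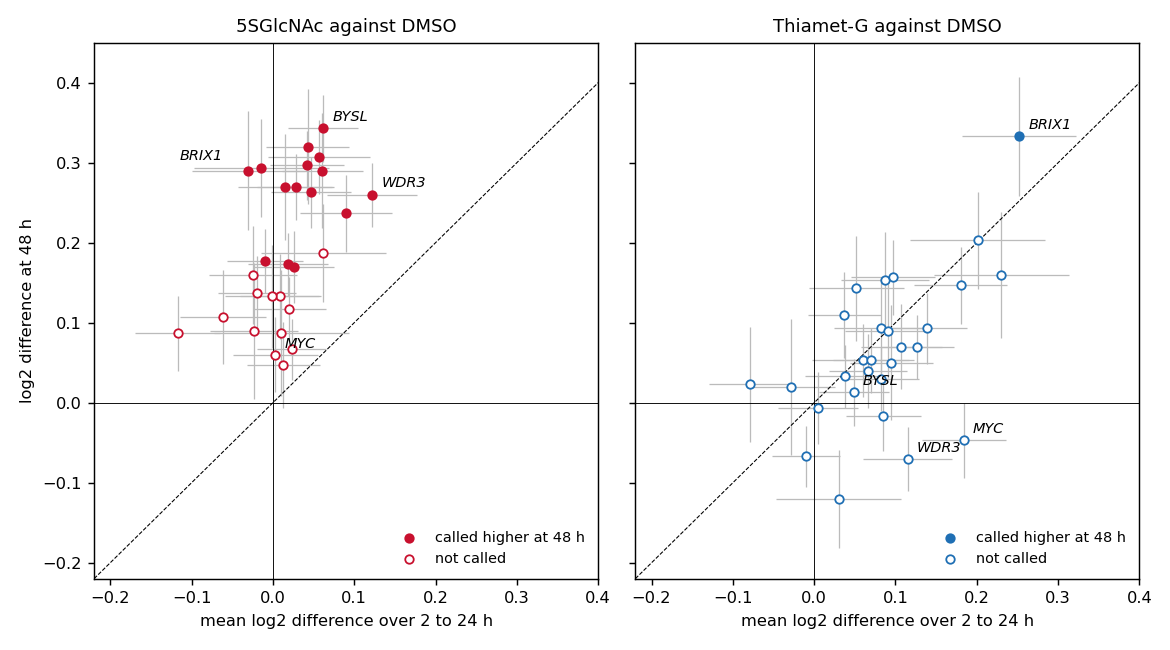
Each point is a gene, with its mean log2 difference from DMSO over 2 to 24 h on the x axis and at 48 h on the y axis, error bars of 1 SE and a dashed line of equality. With 5SGlcNAc all 28 points lie above the line, BYSL going from 0.062 to 0.34, and with Thiamet-G BRIX1 has the highest value on both axes, 0.25 and 0.33.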

How the data were processed

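The authors deposited log2 levels per probe set, which they computed with RMA (per the submitters' processing notes, no version given). RMA equalises the arrays it handles together, so a shift common to most genes can be lost. Each of 11963 genes was read from its brightest probe set among the 19064 annotated with 1 gene, and dim genes were kept. limma 3.58.1 (R 4.3.3) supplied the two-sided test, and a gene was called where the Benjamini-Hochberg adjusted p over all genes was under 0.05. The 9 arrays of 48 h shared 1 estimate of spread. For 2 to 24 h (15 arrays) time was the block, and for changes from 0 h (18 arrays) the treatment series was. Times and series thus stood in for replicates, and values at 1 early time are single arrays without a test. The number of arrays limits the precision: the median SE of a log2 difference was 0.061 at 48 h. The genes and lists were chosen with earlier results of these data known. Full statistics were given for MYC and for at most 8 called genes of the set with the smallest p per comparison, and up to 3 called genes were named per list and direction. The tests were tried on simulated data.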

Additional observations from a re-analysis of the deposited data

Results flagged for a closer look

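BYSL and NOP16 drew attention because their 5SGlcNAc effect at 48 h differed from their mean effect over 2 to 24 h in a test of that difference, which was added after the data were seen. For BYSL the difference between the effects was 0.281 ± 0.056 (limma adjusted p = 0.0135), and it was called in 9 of 11 fits that left out a 48 h array or an early time, with values from 0.26 to 0.30. It lost the call without DMSO replicate 1 (adjusted p = 0.0533) and without 5SGlcNAc replicate 1 (adjusted p = 0.0631). For NOP16 the difference was 0.255 ± 0.061 (adjusted p = 0.0413), and it was called in 2 of 11 such fits, with values from 0.23 to 0.28. The early and late arrays were treated as separately scaled sets because their array medians differ, which the labels do not state. The array set moves with the time, so its part in the differences cannot be told apart.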

How the results depend on the processing

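Counts of called genes of the set moved as follows, and where no construction explains a move the cause was not tested. For 5SGlcNAc against DMSO at 48 h (15 called), leaving out 1 array gave 6 to 9. Genes called higher on the whole array were 349 with all arrays and 150 to 240 in those fits. For Thiamet-G against DMSO at 48 h (1 called), leaving out dim genes gave 3 and trend and robust variance 4. A fit restricted to both groups gave 0, and leaving out 1 array 0 to 3. The whole array had 57 genes called higher in the main fit. In these 4 settings, in order, it had 160 (of 7179), 201, 18 and 14 to 198. For 5SGlcNAc against Thiamet-G at 48 h (13 called), the restricted fit gave 6 and leaving out 1 array 6 to 9. The whole array had 822 genes called higher, then 498 and 411 to 950. For 5SGlcNAc against Thiamet-G over 2 to 24 h (0 called), leaving out dim genes gave 2 and trend and robust variance 3. Calls on the whole array were 31 there, then 166 (of 7178) and 180. Against 0 h, leaving out dim genes gave 4, 4 and 8 and trend and robust variance 5, 4 and 9 at 4, 6 and 8 h (2, 2 and 4 called). Genes called lower on the whole array were 233, 265 and 298 at those times in the main fit. Leaving out dim genes made them 342, 428 and 464 (of 7178), and trend and robust variance 339, 412 and 453. Quantile normalization gave 9 at 8 h and 5 at 24 h (3 called), the mean of probe sets 1 at 24 h, and median centring 1 at 4 h. The whole array then had 456, 757, 586 and 181 genes called lower, against 298, 615, 615 and 233 in the main fit. Leaving out the DMSO array of 4 h, chosen after seeing the data, gave 1 at 4 h, with 77 genes of the whole array called lower. Leaving out 1 series gave 0 to 1 at 2 h (1 called) and at 4 h, and 0 at 6, 8 and 24 h, with fewer arrays. Lower calls on the whole array were then 0 to 14 at 2 h and 0 to 72 at 4 h. At 6, 8 and 24 h they were 0 to 42, 0 to 53 and 136 to 245. MYC turned to 0.010 for Thiamet-G at 48 h after median centring and ran from -0.026 to 0.029 for 5SGlcNAc over 2 to 24 h (0.0030) without 1 time, and NOP16 turned to 0.010 at 24 h with a dimmer probe set.

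With the replicate number as a block, the counts at 48 h were 8 for 5SGlcNAc against DMSO, 0 for Thiamet-G against DMSO and 6 between the inhibitors. Of all genes, 1.83%, 0.159% and 4.5% were called higher in that fit. The numbers did not pair the arrays: deviations of same-numbered arrays correlated at -0.332 to 0.172, and 0 of 9 arrays correlated best with their own number.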
